A study of Mus musculus with 10 samples.

Results

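The 10 enzymes described here make serine from a glycolytic intermediate and pass its side-chain carbon to folate. They were chosen by gene symbol, and all 10 were found among the 26863 genes of the deposited table. The list was drawn up with earlier results of the same comparison known, so the differences between genotypes below describe these libraries and support nothing by themselves. Brown fat from between the shoulder blades, a depot that burns fat for heat, was taken from PnocCre mice (5 libraries) and Wildtype mice (5 libraries). CNO, which switches on designer receptors, was given to both groups 1 h before sampling, and the series names PNOC neurons of the medial preoptic area as the neurons activated in this way. The labels give no strain, sex, age or batch. Which designer receptor was used, how it was delivered and whether Wildtype mice had it too is not given in the sources used here. Since no label says that each library is a separate animal, each p-value reflects only how these samples vary, and that may be in part technical.

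In serine synthesis, PHGDH oxidises 3-phosphoglycerate, PSAT1 transfers an amino group to the product, and PSPH removes the phosphate. Serine hydroxymethyltransferases then split serine into glycine and a methylene group carried by tetrahydrofolate. This step and those that follow exist as a cytosolic set (SHMT1, MTHFD1, ALDH1L1) and a mitochondrial set (SHMT2, MTHFD2, MTHFD1L, ALDH1L2). The carbon units serve purine, thymidylate and methionine synthesis, and the ALDH1L enzymes release surplus units as carbon dioxide with formation of NADPH, a reductant that fat synthesis also uses. ATF4, a transcription factor of the amino acid response, is known to induce Phgdh, Psat1, Shmt2, Mthfd2 and Aldh1l2.

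The tissue label was checked first. All 12 brown adipocyte markers were detected in all 10 libraries. Ucp1, the uncoupling protein, averaged 64072 ± 4732 (PnocCre) and 98965 ± 11808 (Wildtype) normalised counts (mean ± SD of 5), and Cidea, a lipid droplet protein of brown fat, 47508 ± 5501 and 55276 ± 6581. The summed brown markers ran from 169474 to 215562 in PnocCre and from 229453 to 270408 in Wildtype, with 1 of 12 higher in PnocCre by its mean. Markers of the other cell types given next mostly had higher means in PnocCre, but the sums of each type overlapped between the groups. Skeletal muscle markers were higher in PnocCre by their means for 21 of 21, with overlapping sums (10123 to 234466 against 2269 to 30526). Of these markers Tnnc2 was at 0 in all 5 Wildtype and in 2 PnocCre libraries, with a PnocCre mean of 1.31. Fibroblast markers were higher for 11 of 11 (14931 to 23042 against 8678 to 15984), macrophage markers for 9 of 10 (2346 to 4742 against 2195 to 2785) and endothelial markers for 8 of 8 (15945 to 28186 against 14412 to 28073). Of the Schwann cell markers 6 of 8 had higher means in PnocCre, but their sums ran lower there, with 2849 to 3732 against 3018 to 4733. Lymphocyte markers summed to 5215 in PnocCre replicate 2 and to at most 271.8 in the other libraries. In bulk tissue, fewer cells of a type and less RNA per cell cannot be told apart. Libraries held 21304238 to 29171787 reads.

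The upstream windows of Phgdh and Psat1 are shown because these were the members with higher levels in every PnocCre library. Each is the 250 bases before a RefSeq start site (GRCm38.p6), 5′ to 3′ on the minus strand, and capitals mark CCAAT, the core of the box bound by NF-Y. The Phgdh window is chr3:98339970-98340219 and the Psat1 window is chr19:15925060-15925309, the upstream of 2 Psat1 start sites.
Phgdh: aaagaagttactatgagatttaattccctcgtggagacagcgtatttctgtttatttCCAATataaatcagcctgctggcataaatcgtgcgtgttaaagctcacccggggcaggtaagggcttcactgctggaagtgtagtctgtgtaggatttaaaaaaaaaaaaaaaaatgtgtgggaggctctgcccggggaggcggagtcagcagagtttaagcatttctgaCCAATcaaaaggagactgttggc
Psat1: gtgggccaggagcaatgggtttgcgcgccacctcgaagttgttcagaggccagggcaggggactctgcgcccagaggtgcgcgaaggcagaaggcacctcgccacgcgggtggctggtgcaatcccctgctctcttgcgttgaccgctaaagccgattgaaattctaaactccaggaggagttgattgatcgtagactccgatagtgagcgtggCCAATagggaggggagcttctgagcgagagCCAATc
Both windows hold CCAAT at 2 places, starting 193 and 23 bases before the start of Phgdh and 36 and 6 bases before that of Psat1. RefSeq windows matched 9 of the 10 members, 10 windows in all. On either strand CCAAT was in 7 of the 10 windows, including that of Psph, against 33.8% of all 32851 windows. GGGCGG, the GC box, was in 6 of the 10 windows (32.7% of all), among them the other Psat1 start but neither window shown. TGATGNAA, the core of the element that ATF4 binds with C/EBP partners, was in 0 of the 10 windows against 3.45% of all, and CACGTG, the E-box, was also in 0 against 6.02%. None of these motifs contains another, and a match or its absence describes letters only.

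Levels were compared between members as normalised counts per kilobase of gene model. In Wildtype, Aldh1l1, the cytosolic 10-formyltetrahydrofolate dehydrogenase, was highest at 519 ± 85.1 per kb (SD, n = 5, as for all levels here). Shmt1 stood at 273 ± 24.3, Psph at 219 ± 15.5, Mthfd1 at 154 ± 26.3 and Shmt2 at 150 ± 29.0 per kb. The libraries of Mthfd1 and Shmt2 overlapped, while those of the first 3 did not overlap with their neighbours. Phgdh followed at 35.2 ± 14.2, Mthfd2 at 22.7 ± 2.41 and Psat1 at 15.95 ± 5.26 per kb. Mthfd1l (1.74 ± 0.954) and Aldh1l2 (0.920 ± 0.256) were the lowest and overlapped. In Wildtype brown fat the last step of serine synthesis was more abundant per length than the first and the second.

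In PnocCre the order differed in the middle. Phgdh stood at 117 ± 60.5 per kb and overlapped with Shmt2 (126 ± 25.4) and Mthfd1 (139.5 ± 42.8), and Psat1 (43.6 ± 18.3) was above Mthfd2 (22.9 ± 5.69) by its mean, with overlapping libraries. Summed per kb, the 3 serine synthesis enzymes held 333 ± 84.7 in PnocCre and 270 ± 30.1 in Wildtype. The cytosolic set held 789 ± 176 and 947 ± 124, and the mitochondrial set 156 ± 28.8 and 175 ± 28.5. The libraries of the 2 groups overlapped in each of these sums.

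**Figure D1:**
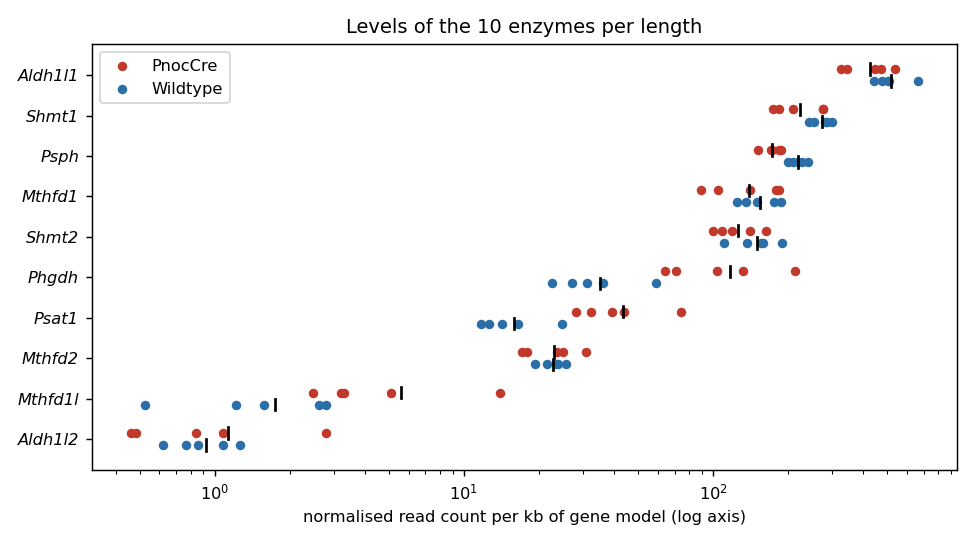
Normalised read count per kb of gene model for the 10 enzymes (log axis), 5 libraries per genotype as points and group means as black bars. Phgdh lies at 117 per kb on average in PnocCre and 35.2 in Wildtype, while Shmt2, above it, lies at 126 and 150.

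Across all 15301 genes tested, limma-trend called 0 between PnocCre and Wildtype at an adjusted p under 0.05 (0.00%), and 0 of the 9 members tested. At an unadjusted p under 0.05 it had 3 members higher and 2 lower, where 8.94% of all genes were higher and 8.07% lower (17.0% in either direction). DESeq2 on the recovered reads called Phgdh and Psat1 higher and Psph lower, where it called 2.20% of genes higher and 1.24% lower (3.44% in all). The groups did not overlap for the same 3 members, 2 higher and 1 lower, and for 1.79% and 2.61% of all genes (4.40% in all). edgeR called 0 genes. Since the list was chosen with this comparison known, these shares are given as they stand.

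Phgdh, the first and committing enzyme of serine synthesis (chromosome 3, 98220486 to 98247306, GRCm39, minus strand, ENSMUSG00000053398), had 176, 258, 531, 159 and 326 normalised counts in PnocCre replicates 1 to 5 and 89.7, 55.9, 147, 67.6 and 77.8 in Wildtype replicates 1 to 5. Every PnocCre library lay above every Wildtype library, though the lowest PnocCre value and the highest Wildtype value were close. The mean was 290 ± 150 against 87.5 ± 35.3, a ratio of 3.31. On the log2(value + 1) scale the difference was 1.66 (SE 0.34, limma adjusted p 0.116). The authors' deposited table gives 1.73 with an adjusted p of 3.95e-04. Its processed pseudogene Phgdh-ps1 reached at most 1.65 normalised counts in any library.

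Psat1, the aminotransferase of the second step (chromosome 19, 15882042 to 15924701, minus strand), had 167, 120, 316, 137 and 187 normalised counts in PnocCre and 70.0, 60.3, 105, 53.6 and 49.96 in Wildtype. Again no library of one group reached the other, and replicate 3 was the highest of each group, as it was for Phgdh. The mean was 186 ± 77.7 against 67.9 ± 22.4, a ratio of 2.73, with a log2 difference of 1.40 (SE 0.28, limma adjusted p 0.116). The authors' deposited table gives 1.45 with an adjusted p of 5.92e-04.

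Psph, the phosphatase of the last step (chromosome 5, 129842622 to 129864513, minus strand), went the other way. It had 809, 744, 793, 657 and 742 normalised counts in PnocCre and 1039, 945, 986, 905 and 868 in Wildtype. All PnocCre libraries were below all Wildtype libraries, within a narrow range. The mean was 749 ± 59.5 against 949 ± 67.1, a log2 difference of -0.34 (SE 0.09, limma adjusted p 0.146), and the authors' deposited table gives -0.34 with an adjusted p of 0.0293. DESeq2 without 1 library kept its call of Psph in 3 of 10 fits (without PnocCre replicate 1 or 3 or Wildtype replicate 5), with adjusted p from 0.0334 to 0.108, while it called Phgdh and Psat1 in all 10. The Psph gene model shares 452 bases with Cct6a on the other strand, which had 2117 and 2352 counts, and whether reads were counted by strand is not stated in any source used here. The summed brown adipocyte markers were also lower in every PnocCre library (169474 to 215562 against 229453 to 270408), with 1 of 12 higher by its mean. What part brown adipocyte RNA has in the Psph counts was not tested.

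**Figure D2:**
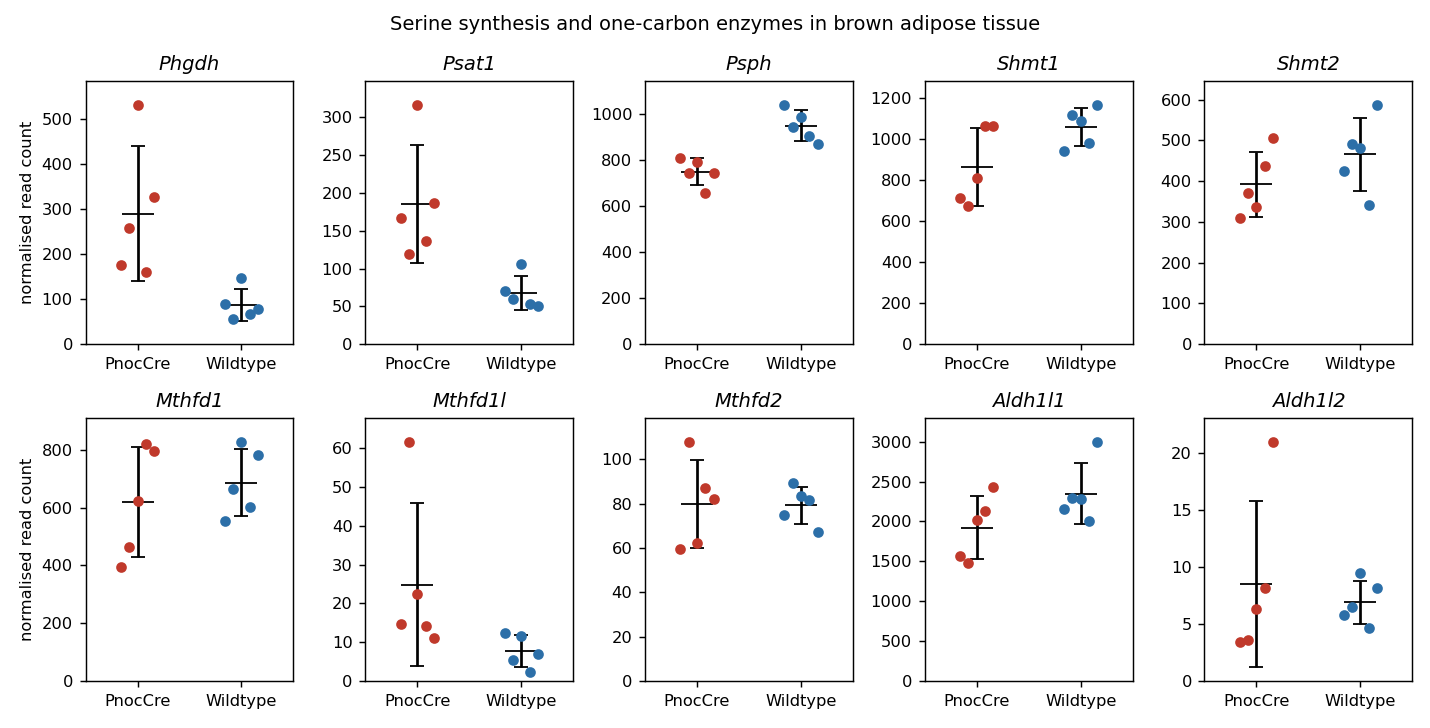
Normalised read counts of the 10 enzymes in 5 PnocCre and 5 Wildtype libraries (points, replicates 1 to 5 from left to right), with the mean and SD in black; axes start at 0. Phgdh and Psat1 are higher in every PnocCre library, Psph is lower in every one, and the groups overlap for the other 7.

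A ratio of members within 1 library does not depend on the size factor. The log2 ratio of Phgdh to Psph per kb was -1.40, -0.73, 0.22, -1.24 and -0.38 in PnocCre and -2.73, -3.28, -1.95, -2.94 and -2.68 in Wildtype. The groups did not overlap, and the means were -0.71 ± 0.66 and -2.72 ± 0.49. Psat1 over Psph had means of -2.07 ± 0.49 and -3.83 ± 0.36, also without overlap. Neither is a further result. With Phgdh and Psat1 higher and Psph lower in every PnocCre library, these ratios could not overlap. The groups overlapped in the mitochondrial to cytosolic ratios. Shmt2 over Shmt1 was -0.82 ± 0.18 and -0.88 ± 0.19, and Mthfd2 over Mthfd1 was -2.58 ± 0.52 and -2.75 ± 0.30. Mthfd1l over Mthfd1 was -4.89 ± 1.28 and -6.68 ± 0.94, a difference of 1.79, and Aldh1l2 over Aldh1l1 was -8.87 ± 0.78 and -9.17 ± 0.32.

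**Figure D3:**
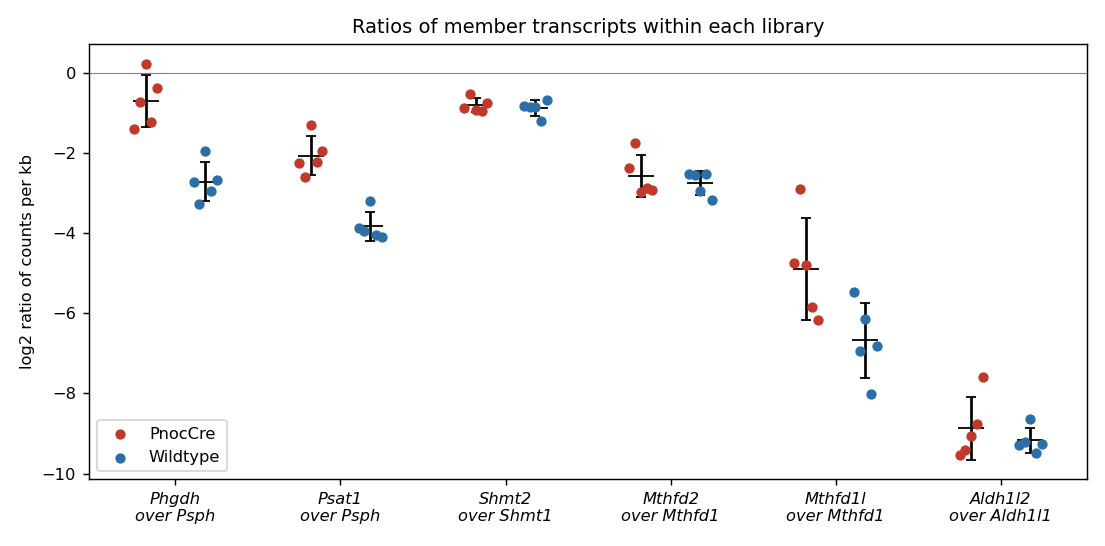
Log2 ratios of normalised counts per kb between 2 members within each library, PnocCre and Wildtype, with mean and SD in black. The groups do not overlap for Phgdh and Psat1 relative to Psph (means -0.71 against -2.72 and -2.07 against -3.83), and overlap for the other 4 ratios. The lack of overlap follows from the counts of these 3 genes.

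White adipocyte markers had higher means in PnocCre as well. This held for all 9 of the 10 listed markers that the table has, with sums of 3269, 2856, 7588, 3730 and 4621 normalised counts in PnocCre and 1597, 1676, 4071, 1398 and 1915 in Wildtype. Replicate 3 was the highest of both groups here as well. The names of these 2 libraries carry nearby numbers. So does the name of Wildtype replicate 2, whose marker sum was 1676 and whose Phgdh, at 55.9 counts, was the lowest of all libraries. No label says what the numbers mark, so a shared litter, date or batch was not tested. Of the defining markers Lep, the leptin gene, had 1259 and 903 counts, Retn 1246 and 522, and Tcf21 was at 0 in 5 Wildtype and 4 PnocCre libraries. Hoxc9 was at 0 in 3 Wildtype and 2 PnocCre libraries, with means of 0.44 and 0.89, so both it and Tcf21 count among the 9 from near 0. With the mean log2 level of these markers as a covariate, chosen after the data were seen, the difference was 0.53 for Phgdh (limma adjusted p 0.547), 0.47 for Psat1 (0.525) and -0.43 for Psph (0.509). With the skeletal muscle markers as the covariate it was 1.35 (limma adjusted p 0.168), 1.19 (0.162) and -0.30 (0.209). The mean log2 level of the muscle markers ran from 7.37 to 12.2 in PnocCre and from 2.09 to 9.13 in Wildtype. Only Wildtype replicates 3 and 4 reached the PnocCre range, so the muscle fit can tell marker level and genotype apart only in part. The mean log2 level of the white markers ran from 5.85 to 6.97 in PnocCre and from 4.98 to 6.02 in Wildtype. Only Wildtype replicate 3 reached the PnocCre range, so the fit with that covariate cannot tell marker level and genotype apart. Without PnocCre replicate 3 Phgdh stood at 1.40 and Psat1 at 1.19, and without Wildtype replicate 3 at 1.86 and 1.58. What part white adipocyte or other cell types have in the levels of Phgdh and Psat1 was not tested beyond these values.

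**Figure D4:**
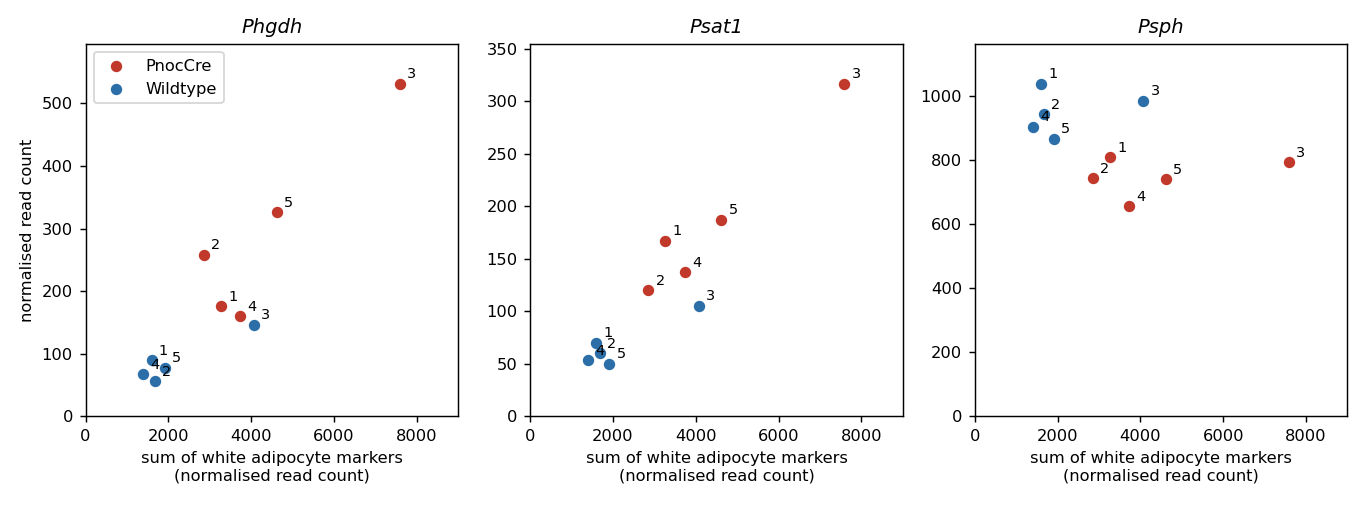
Normalised counts of Phgdh, Psat1 and Psph against the summed white adipocyte markers in each library, numbered by replicate, PnocCre and Wildtype. Replicate 3 has the highest marker sum of each group (7588 and 4071) and the highest Phgdh (531 and 147) and Psat1 (316 and 105).

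Profiles over the 10 libraries were compared by Euclidean distance after scaling each gene to mean 0 and SD 1, among 10876 named protein-coding genes with a mean of at least 50 counts. Phgdh lay nearest to Trf, the iron carrier transferrin (0.62), and to Dpt, a matrix protein of fibroblasts (0.91), where the median distance was 4.41. Psat1 lay nearest to Sncg, gamma-synuclein, itself on the white adipocyte list (0.64), and to Tspan4, a tetraspanin (0.76). Phgdh and Psat1 were each other's nearest members (0.99). Trf had 2526, 3848, 6778, 2853 and 5774 counts in PnocCre and 2044, 1068, 2563, 1123 and 1185 in Wildtype, with replicate 3 highest in both. The nearest genes to Shmt2 were Ttll12 (1.11) and Pik3c3 (1.13), and those to Mthfd2 were Samd10 (1.52) and Dnajc9 (1.53). No member came near Mthfd2, with Shmt2 the closest at 3.74.

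The groups overlapped for each of the 3 cytosolic folate enzymes. Shmt1, which makes glycine and methylene-tetrahydrofolate from serine, had 715, 673, 809, 1067 and 1067 normalised counts in PnocCre and 942, 1117, 1092, 984 and 1168 in Wildtype. The 3 lowest values were all PnocCre. The log2 difference was -0.31 (SE 0.14, limma adjusted p 0.291), and 184 bases of the gene model overlap Smcr8 on the other strand (510 and 670 counts). Aldh1l1 had 1561, 1478, 2022, 2128 and 2429 counts in PnocCre and 2159, 2293, 2279, 1999 and 3000 in Wildtype. Its log2 difference was -0.30 (SE 0.16, adjusted p 0.343). Mthfd1, the trifunctional enzyme that interconverts the folate forms, had 620 ± 190 and 686 ± 117, with PnocCre libraries from 396 to 820 and Wildtype libraries from 553 to 828.

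In mitochondria, Shmt2 had 311, 370, 337, 437 and 506 normalised counts in PnocCre and 425, 492, 482, 342 and 587 in Wildtype, a log2 difference of -0.25 (SE 0.17, limma adjusted p 0.446). Mthfd2, the dehydrogenase and cyclohydrolase that many dividing cells raise, had 59.7, 108, 62.2, 87.3 and 82.1 in PnocCre and 74.9, 89.3, 83.3, 81.5 and 67.4 in Wildtype. Its means were 79.9 ± 19.8 and 79.3 ± 8.40, a log2 difference of -0.02 (SE 0.19, adjusted p 0.967), whose sign changed under 14 of 32 alternatives. Its paralog Mthfd2l was more abundant per length, at 38.4 ± 5.78 per kb in PnocCre and 40.6 ± 2.87 in Wildtype, with a log2 difference of -0.09 (SE 0.12).

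Mthfd1l, the mitochondrial formate-producing synthetase, was rare, with 14.7, 61.7, 22.5, 14.2 and 11.01 normalised counts in PnocCre (11 to 68 reads) and 12.4, 5.38, 11.6, 2.33 and 6.97 in Wildtype (2 to 15 reads). PnocCre replicate 2 stood far above the rest, and 1 PnocCre library lay within the Wildtype range. The log2 difference was 1.44 (SE 0.52, limma adjusted p 0.208), and it was 1.05 without PnocCre replicate 2. In that library, which also had the highest Mthfd2, lymphocyte markers summed to 5215 and proliferation markers to 350.5. The other 4 PnocCre libraries had proliferation sums of 123 to 212, and the Wildtype libraries 37.9 to 73.8. The lymphocyte sums of the other 4 PnocCre libraries, 95.1 to 272, overlapped with those of Wildtype, 101 to 156. With replicate 2 included, all 12 lymphocyte and 8 proliferation markers had higher means in PnocCre. Ms4a1, Cd8a, Cd8b1 and Cdk1 were among those at 0 in some library, and Bub1 was at 0 in 1 PnocCre and 4 Wildtype libraries. The part of these cells in the Mthfd1l and Mthfd2 counts was not tested. Aldh1l2, the mitochondrial counterpart of Aldh1l1, did not pass the filter on low values. It had 3.46, 3.63, 6.31, 8.12 and 21.0 counts in PnocCre (4 to 21 reads) and 5.76, 6.46, 9.49, 4.66 and 8.13 in Wildtype (4 to 9 reads), and the authors' deposited table gives it a log2 difference of 0.29 with an adjusted p of 0.841. Its gene model shares 1056 bases with Nopchap1 on the other strand.

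The genes around the pathway are given by list, with the median log2 difference of all 15301 genes at -0.0062 and 50.7% of them lower, and limma called 0 genes of any list. Serine and glycine breakdown had 6 of 8 tested genes lower, with a median of -0.19. Dld, the dehydrogenase that the glycine cleavage system shares with pyruvate dehydrogenase, had 15962 ± 3298 and 20811 ± 1731 counts (log2 difference -0.40, SE 0.15), Srr, serine racemase, stood at -0.25, and Gldc, the glycine decarboxylase, at 0.62 with an SE of 0.35. Among 12 carriers of serine, glycine and folate 6 were higher and 6 lower, with a median of -0.0044. Slc7a10, a small neutral amino acid transporter of adipocytes that carries serine, had 302, 412, 671, 173 and 304 counts in PnocCre and 173, 140, 233, 195 and 94.1 in Wildtype. It too was highest in replicate 3 of each group, and its log2 difference of 1.08 (SE 0.33, limma adjusted p 0.167) was 0.17 with the white adipocyte markers as a covariate. Here too that fit cannot tell marker level and genotype apart. The authors' deposited table gives Slc7a10 a log2 difference of 1.16 with an adjusted p of 0.0249. The folate carriers Slc46a1 and Slc25a32 stood at -0.49 and -0.36.

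Folate handling and thymidylate synthesis had 4 of 8 genes higher and a median of 0.024. Ggh and Fpgs, which remove and add folate's glutamate tail, stood at 0.18 (SE 0.12) and 0.17 (SE 0.13). In the methionine cycle and transsulfuration 9 of 15 were lower, with a median of -0.16, among them Sardh, the sarcosine dehydrogenase of mitochondria (-0.44, SE 0.18), and Ahcy, which clears S-adenosylhomocysteine (-0.30). Ahcyl1, a relative of Ahcy that regulates calcium channels, stood at -0.35. Purine synthesis, a main user of formyl groups, had 7 of 13 higher and a median of 0.012, with Impdh2 at 0.30, Prps2 at 0.79 (SE 0.36) and Paics at -0.28. None of the genes named in these 3 lists passed limma or DESeq2.

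The glycolytic steps around 3-phosphoglycerate, the branch point into serine, had 4 of 6 genes lower and a median of -0.58. Eno1, which draws on the same carbon further down, had 97268 ± 14989 counts in PnocCre and 147670 ± 11908 in Wildtype, without overlap (log2 difference -0.61, SE 0.14, limma adjusted p 0.120). Pgk1, which makes 3-phosphoglycerate, stood at -0.54 (SE 0.17), and Gapdh, also among the lower genes of this list, at -1.53 with an SE of 1.34. Pgam2, the muscle mutase, stood at 2.92 (SE 0.90) with overlapping groups, from 107 to 1885 counts in PnocCre and from 23.1 to 270 in Wildtype. Skeletal muscle markers had higher means in PnocCre as well, and the part of muscle in the Pgam2 counts was not tested. Of the other enzymes that produce NADPH all 6 tested were lower (median -0.53), including Pgd (-0.67, SE 0.19) and G6pdx (-0.72, SE 0.29) of the pentose phosphate pathway and malic enzyme Me1 (-0.66, SE 0.24). DESeq2 called Eno1 and Pgd lower, and no other gene of these 2 lists.

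Genes of the ATF4 programme went both ways, with 17 of 27 lower and a median of -0.11. Atf4 itself had 2794, 1784, 2350, 1759 and 1696 normalised counts in PnocCre and 2858, 2568, 3363, 3709 and 1650 in Wildtype, a log2 difference of -0.42 (SE 0.22, limma adjusted p 0.334) with overlapping groups. Cebpb, a partner of ATF4 and of adipocyte differentiation, had 3554 ± 506 and 6016 ± 1503 without overlap (-0.74, SE 0.18, adjusted p 0.127), and Slc3a2, the heavy chain of amino acid exchangers, stood at -0.45 (SE 0.11). Stc2, a secreted glycoprotein induced by stress, stood at 1.93 (SE 0.54) from low counts of 27.1 ± 13.3 and 7.32 ± 6.40. DESeq2 called 4 genes of this list lower and 1 higher. Asns, the asparagine synthetase that ATF4 induces, stood at -0.23 (SE 0.12), while Chac1, which degrades glutathione, stood at 1.27 (SE 0.51) and Pycr1, of proline synthesis, at 0.54 (SE 0.36).

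**Figure D5:**
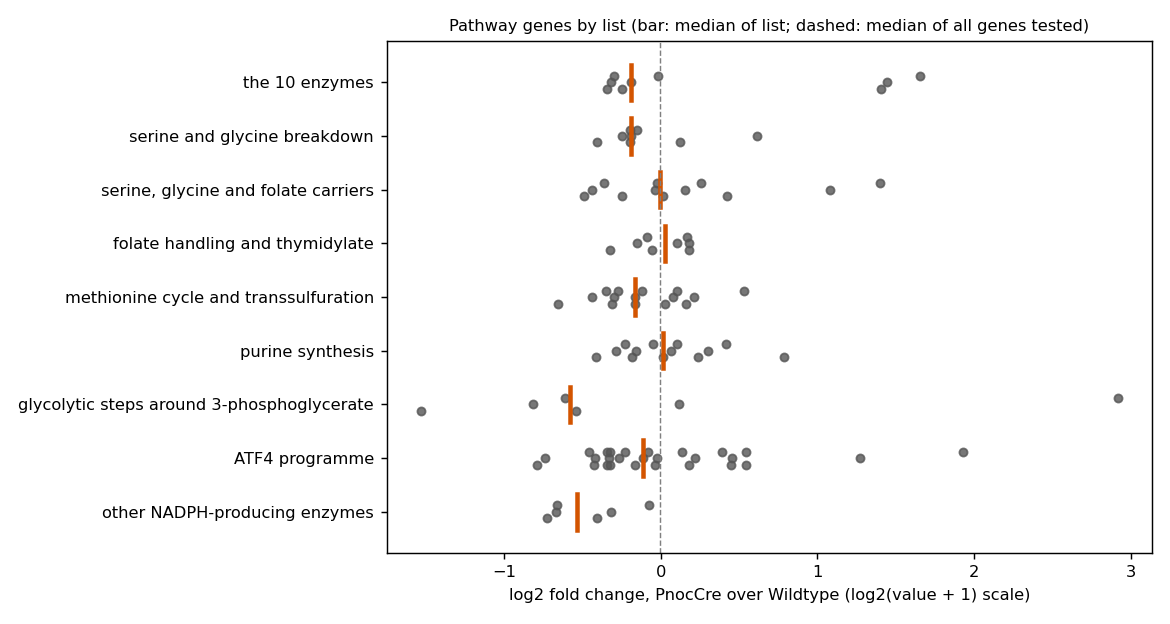
Log2 difference between PnocCre and Wildtype on the log2(value + 1) scale for each gene tested, by list, with the list's median as an orange bar and the median of all genes tested as a dashed line. Phgdh, Psat1 and Mthfd1l lie above 1.4 and the other 6 tested enzymes between -0.34 and -0.02, while the glycolytic list and the NADPH list have medians of -0.58 and -0.53.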

How the data were processed

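PolyA RNA of 10 strand-specific libraries (dUTP method) was sequenced. Tools were, per the submitters' processing notes, featureCounts 1.5.0-p3, HISAT2 2.0.5 and an unversioned DESeq2, and the build was GRCm39. For the annotation release and the strand setting, nothing is stated in the sources used here. The deposited signal per gene and library is a read count that the authors divided by 1 size factor per library. In 100% of values whole reads were recovered at a tolerance of 0.01 reads. The authors' log2 fold changes and deposited adjusted p-values come from the same table, as does gene length, another column per the file headers. Deposited group means equalled column means to within 4.00e-04.

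The main test was limma-trend (limma 3.58.1, R 4.3.3) on log2(value + 1), moderated robustly. Genes averaging under 10 normalised counts were left out, leaving 15301, and p was Benjamini-Hochberg adjusted over all of them, 2-sided, threshold 0.05. This scale understates the change of low genes. edgeR 4.0.16, DESeq2 1.42.0 and limma-voom on recovered reads, other scalings, filters, pseudocounts, library weights, marker covariates and left-out libraries were alternatives. DESeq2 called the 575 genes that the authors' deposited table has past 0.05. Replicates were numbered in accession order and pair nothing. No 2 libraries of a group were duplicates (chi-square per degree of freedom at least 19.7). Tests were run on simulated counts first, with a limit on the share of false calls that was not applied to DESeq2. The members, gene lists and marker lists were chosen with earlier results of these data known. Named genes are the members, the 3 genes of each list with the smallest p, 2 nearest profiles for each of 4 members, Mthfd2l, Atf4, Ucp1 and Cidea, and 1 gene so chosen is not reported here. Asns, Chac1, Pycr1, the marker genes and genes that overlap a member were named besides, after their values were seen. Promoter windows come from RefSeq, on GRCm38.p6.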

Additional observations from a re-analysis of the deposited data

Results flagged for a closer look

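Of 94 checks of 1 gene in 1 group (47 genes), 6 had 1 library far from the other 4, a gap that chance gives in about 1 of 20 such groups. Mthfd1l was at 61.7 normalised counts in PnocCre replicate 2, against 11.01 to 22.5 in the other PnocCre libraries. Aldh1l2 was at 21.0 in PnocCre replicate 5, against 3.46 to 8.12. Slc3a2 was at 1133 in PnocCre replicate 2, below 1182 to 1194 in the others. Sncg was at 1754 in PnocCre replicate 3, against 583 to 797, and at 613 in Wildtype replicate 3, against 211 to 296. Dnajc9, a histone cochaperone, was at 326 in Wildtype replicate 2, against 271 to 281.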

How the results depend on the processing

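There were 32 alternatives, 21 planned and 11 added after the data were seen (DESeq2 with each library left out, and the white adipocyte covariate). Genes called numbered 0 by limma, 575 with DESeq2 and 53 with library weights, and 0 to 1 with 1 library left out (1 without PnocCre replicate 3). DESeq2 called 439, 292, 578, 745 and 655 genes without PnocCre replicates 1 to 5 in turn and 532, 216, 409, 273 and 241 without Wildtype replicates 1 to 5. Members called numbered 0 by limma, 3 with DESeq2 and 2 with library weights (Phgdh at 2.01, adjusted p 0.0480, and Psat1 at 1.67, adjusted p 0.0421), and 0 with 1 library left out (2 to 3 with DESeq2). edgeR, limma-voom and the other planned settings called 0 genes. Phgdh ranged from 0.53 to 2.01 and Psat1 from 0.47 to 1.67, the lowest with the white adipocyte covariate, and Psph from -0.43 to -0.29, each with 1 sign throughout. Shmt1, Shmt2, Mthfd1, Mthfd1l and Aldh1l1 kept their sign as well, while Mthfd2 did not. TMM scaling moved the median of all genes by 0.0065. The folate handling median was 0.17 with DESeq2 (the cause was not tested). With the skeletal muscle covariate the carriers median went from -0.0044 to 0.26, the purine median from 0.012 to -0.18 and the serine and glycine breakdown median from -0.19 to -0.062. Mthfd1l and Aldh1l2 rest on few reads. No paired analysis was possible because the labels give the groups no shared replicate numbers. Library names of both groups carry numbers, some of them close together, but no label says what they mark, and they were not used to pair libraries.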

Other observations

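Gapdh, the glycolytic dehydrogenase often used as a reference gene, ran from 200 to 10787 normalised counts among the PnocCre libraries and from 714 to 12536 among the Wildtype libraries. It was named after its values were seen. Its log2 difference of -1.53 has an SE of 1.34, while the authors' deposited table gives -0.50 with an adjusted p of 0.852. Gapdh is known to have processed copies in the mouse genome, and their part in these counts was not tested.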
